A study of Mus musculus with 33 samples.

Results

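The 8 genes described here, Adipoq, Fabp4, Plin1, Lep, Cidec, Retn, Cfd and Pparg, are widely used as markers of the fat cells in which the mouse mammary gland is embedded. They were taken by gene symbol from a count table of 54532 genes, each symbol on 1 row. The RNA came from mammary tumours of FVB mice, sequenced in bulk. The treated samples form 2 sets that differ in their titles. Titles ending in _7 gave 4 tumours treated with RP-6306 (replicates 1 to 4) and 3 given vehicle, and titles without that suffix gave 11 tumours treated with RP-6306 and 4 given vehicle. RP-6306 is an inhibitor of PKMYT1, a kinase that restrains CDK1, and its dose was 20 mg/kg, given at a daily frequency on which the labels differ. A further 5 tumours had titles starting with SPON and 5 with WT, and these had no treatment. The labels give FVB as the genotype of every sample and name no transgene, host site, treatment time or animal for any single tumour, and do not say which untreated group carried cyclin E or PyMT. Treated tumours had been transplanted, and neither the tumour line nor the number of donor tumours is stated.

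White adipocytes store triglyceride in a single large droplet coated by perilipin 1, release fatty acids on demand and secrete hormones into the blood. The nuclear receptor PPARγ, encoded by Pparg, drives their formation together with C/EBP factors. Mammary tumours grow within a fat pad, so fat cells are a usual neighbour of the tumour tissue. Several of the 8 genes are also used outside fat: Fabp4 is made by capillary endothelium and macrophages, and Pparg by macrophages and some epithelia.

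The 32 grouped libraries held 13701115 to 34637096 counts, and all 7 libraries of the _7 set held at least 26517748. A gene with no count in a library could therefore still have been present at up to 0.0863 to 0.237 CPM (counts scaled by library size), depending on the library. This limit covers counting error only. The summed CPM of 10 epithelial markers lay between 4015 and 10395 in RP-6306 tumours without suffix, against 618 and 1849 in their vehicle tumours, and between 58.9 and 86.2 in RP-6306 _7 tumours, against 29.4 and 96.2 in vehicle _7 tumours. All were labelled mammary tumour, and the epithelial markers were lowest in the _7 set. In bulk RNA, fewer fat cells and less RNA per fat cell cannot be told apart.

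Retn was the member with the highest Pearson's r with Adipoq, whereas Cidec led by Spearman's rho. In the main fits, Plin1 or Cfd was called in RP-6306 against vehicle or in its difference between the sets. The call of Plin1 rests on a single count in RP-6306 tumours without suffix. The sequences just before the start sites of Adipoq, Retn, Plin1 and Cfd are shown. They are the 250 bases before the start site in RefSeq on GRCm38.p6, read 5′ to 3′ on the gene's strand, from chr16:23146286-23146535 (plus strand) for Adipoq, chr8:3655520-3655769 (plus) for Retn, chr7:79732777-79733026 (minus) for Plin1 and chr10:79890603-79890852 (plus) for Cfd. Capitals mark matches, on either strand, to the CCAAT box (CCAAT), the C/EBP half-site pair TTGCNNAA or TATAAA.
Adipoq: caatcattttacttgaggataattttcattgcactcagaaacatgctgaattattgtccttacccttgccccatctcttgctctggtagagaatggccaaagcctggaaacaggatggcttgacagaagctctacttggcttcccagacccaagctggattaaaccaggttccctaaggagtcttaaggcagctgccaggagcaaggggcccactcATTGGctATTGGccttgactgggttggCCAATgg
Retn: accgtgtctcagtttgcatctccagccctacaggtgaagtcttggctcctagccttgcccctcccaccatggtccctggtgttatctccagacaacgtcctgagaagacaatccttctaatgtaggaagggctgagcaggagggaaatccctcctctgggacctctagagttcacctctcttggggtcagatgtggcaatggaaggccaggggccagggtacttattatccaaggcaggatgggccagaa
Plin1: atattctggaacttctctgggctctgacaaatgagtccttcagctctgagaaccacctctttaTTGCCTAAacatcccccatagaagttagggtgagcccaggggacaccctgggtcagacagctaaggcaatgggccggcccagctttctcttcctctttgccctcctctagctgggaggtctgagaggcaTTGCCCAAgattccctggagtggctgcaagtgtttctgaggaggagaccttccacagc
Cfd: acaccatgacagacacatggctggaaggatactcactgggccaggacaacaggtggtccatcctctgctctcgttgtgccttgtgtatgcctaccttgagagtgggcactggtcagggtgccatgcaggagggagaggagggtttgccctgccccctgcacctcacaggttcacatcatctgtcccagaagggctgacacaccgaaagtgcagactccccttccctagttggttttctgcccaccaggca
The Adipoq window held 3 CCAAT matches, 2 of them on the reverse strand as ATTGG, within the last 34 bases. The Plin1 window held 2 TTGCNNAA matches, at 187 and 58 bases before the start, and neither the Retn nor the Cfd window held a match. Of 32851 RefSeq promoter windows of the same length, 33.8% held CCAAT, 9.56% held TTGCNNAA and 12.4% held TATAAA. A direct repeat of the PPARγ type, 2 copies of AGGTCA with 1 base between them, on either strand and with up to 2 mismatches, occurred in 3.24% of all windows and in none of the 10 windows of the 7 members that had one. A window for Lep held TTGCGCAA at 55 bases before the start, a match on both strands at once. These matches describe letters and were not tied to any measurement of binding.

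Apart from Fabp4, the adipocyte genes were scarce in most libraries, and a few libraries held most of the counts of the fat-restricted ones. Fat-restricted genes such as Adipoq and Plin1 were at or near 0 in most tumours and reached 8.44 and 11.04 CPM in 1 RP-6306 _7 tumour. All 8 genes had at least 1 count in only 5 of the 32 libraries: RP-6306 _7 replicates 1 and 4, vehicle _7 replicate 1, and WT replicates 1 and 5. At the other end, 1 of the 8 was counted in SPON replicate 1 and 2 were counted in RP-6306 replicate 7 without suffix. The median number counted was 7.5 in RP-6306 _7 and 7 in vehicle _7 tumours, 4 in RP-6306 and 7 in vehicle tumours without suffix, and 4 in SPON and 5 in WT tumours. Detection of a single count depends on depth, and every _7 library was deeper than every library of the other groups.

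**Figure D1:**
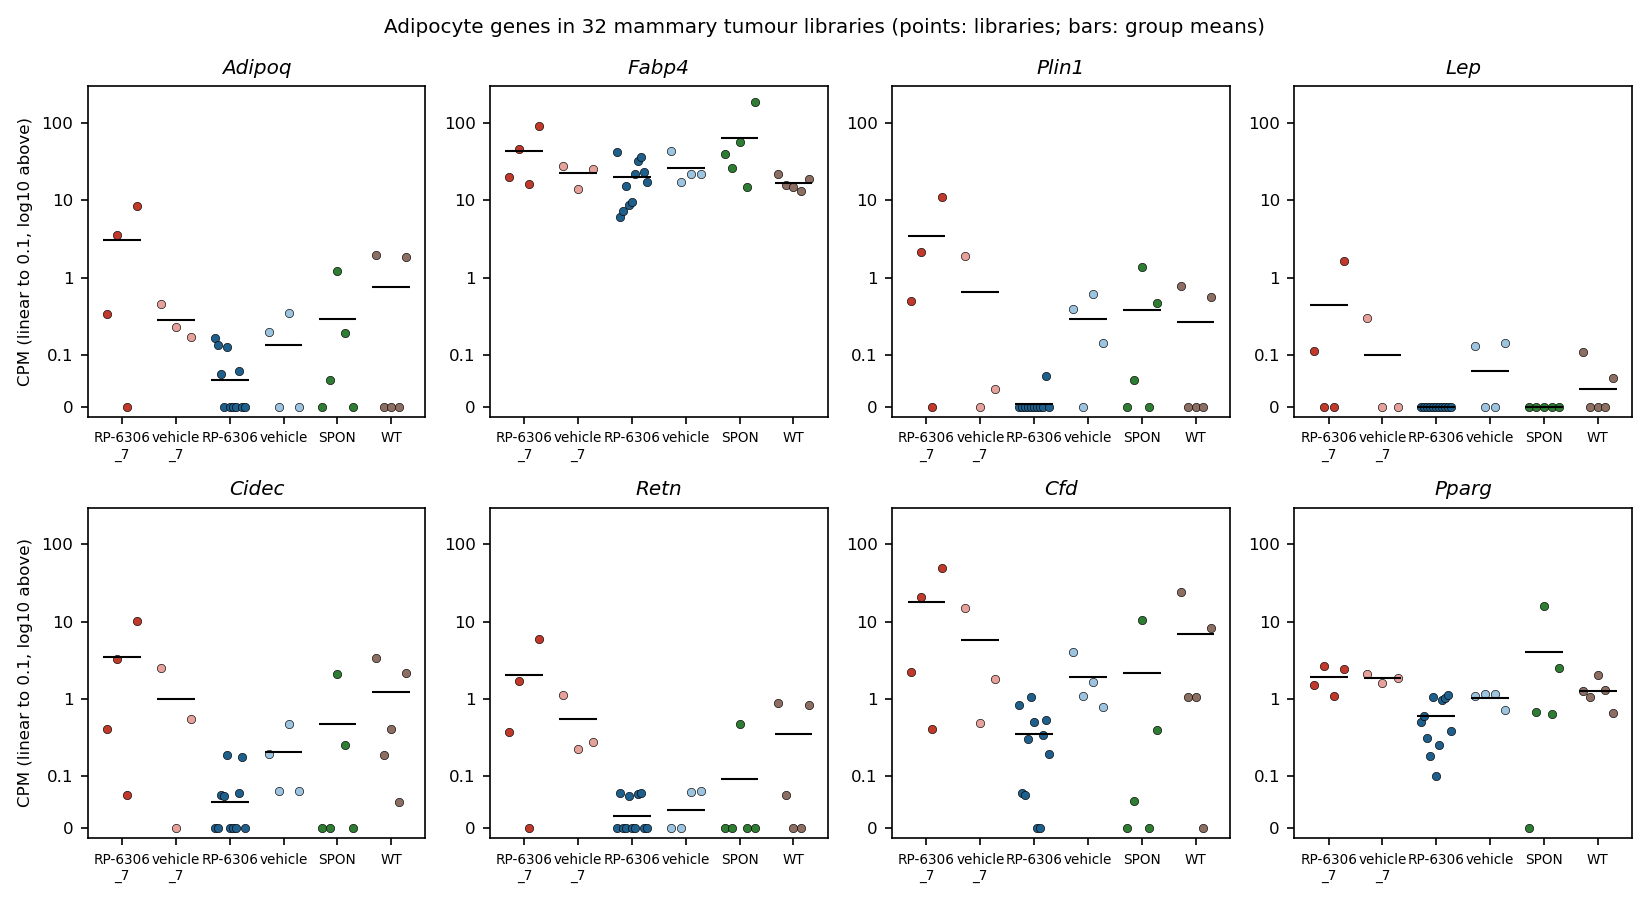
CPM of the 8 adipocyte genes in 32 tumour libraries by title group (linear up to 0.1, log10 above), with 1 point per library and a bar at the group mean. Fabp4 lies above 6 CPM in every library, whereas Lep is at 0 in all 11 RP-6306 libraries without suffix and all 5 SPON libraries.

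Adipoq, on chromosome 16 (GRCm38 chr16:23146536-23158028, plus strand), encodes adiponectin, a hormone made almost solely by fat cells. It was at 0.340, 3.51, 0 and 8.44 CPM in RP-6306 _7 tumours, against 0.455, 0.228 and 0.172 CPM in vehicle _7 tumours. Without suffix it was at most 0.167 CPM in RP-6306 tumours, with no count in 6 of 11, against 0.196, 0, 0.345 and 0 CPM in vehicle tumours. SPON tumours had 0, 0.0516, 1.22, 0.194 and 0 CPM, against 1.93, 0, 0, 0 and 1.84 CPM in WT tumours. Within WT, 2 tumours carried all the counts of the gene, and within RP-6306 _7, replicates 2 and 4 did so apart from 9 counts. The mean was highest in RP-6306 _7 (3.07 ± 3.91 CPM, SD, n = 4) and lowest in RP-6306 without suffix (0.0509 ± 0.0650 CPM, SD, n = 11), and ordered by their means all neighbouring groups overlapped.

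Retn and Lep encode the other 2 hormones, resistin and leptin. Retn (chr8:3655770-3660110, plus strand) was at 0.378, 1.70, 0 and 6.05 CPM in RP-6306 _7 tumours, against 1.14, 0.228 and 0.276 CPM in vehicle _7 tumours. It had 4 counts in all 11 RP-6306 tumours without suffix, against 2 counts in their 4 vehicle tumours. It was at 0.476 CPM in SPON replicate 3 and at 0 in the other SPON tumours, against 0.883, 0.0634, 0, 0 and 0.835 CPM in WT tumours. The same libraries stood high as for Adipoq.

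Lep (chr6:29060220-29073877, plus strand), which signals fat stores to the brain, was the rarest member. It was at 0.113, 0, 0 and 1.64 CPM in RP-6306 _7 tumours, against 0.303, 0 and 0 CPM in vehicle _7 tumours. No count was found in any of 11 RP-6306 tumours without suffix, against 0.131, 0, 0 and 0.143 CPM, or 4 counts in all, in their vehicle tumours. With 0 and 4 counts, no fold is given. SPON tumours held no count and WT tumours held 3.

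Plin1 and Cidec encode proteins of the fat droplet. Plin1 (chr7:79720218-79732903, minus strand) encodes perilipin 1, which coats the droplet and guards it from lipases. It was at 0.491, 2.16, 0 and 11.04 CPM in RP-6306 _7 tumours, against 1.89, 0 and 0.0345 CPM in vehicle _7 tumours. A single count, in replicate 10, was found among the 11 RP-6306 tumours without suffix, against 17 counts (0.392, 0, 0.622 and 0.143 CPM) in their vehicle tumours. The summed level was 54.1-fold higher in these vehicle tumours, with an exact 95% interval of 8.47 to 2259 that covers counting error only. SPON tumours had 0, 0.0516, 1.36, 0 and 0.474 CPM, against 0.772, 0, 0, 0 and 0.557 CPM in WT tumours.

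Cidec (chr6:113424634-113435760, minus strand) promotes the fusion of small droplets into a large one. It was at 0.416, 3.28, 0.0638 and 10.3 CPM in RP-6306 _7 tumours, against 2.50, 0 and 0.551 CPM in vehicle _7 tumours. Without suffix, RP-6306 tumours had 0 to 0.189 CPM with a median of 0, against 0.196, 0.0722, 0.483 and 0.0714 CPM in vehicle tumours. It was at 0, 0, 2.11, 0.258 and 0 CPM in SPON tumours, against 3.42, 0.190, 0.416, 0.0505 and 2.17 CPM in WT tumours. The groups overlapped in each pair.

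Cfd (chr10:79890853-79892655, plus strand) encodes adipsin, the complement factor D that fat cells release. It was at 2.23, 20.9, 0.414 and 49.4 CPM in RP-6306 _7 tumours, against 15.1, 0.488 and 1.83 CPM in vehicle _7 tumours. RP-6306 tumours without suffix had 0 to 1.07 CPM with a median of 0.309, against 4.11, 1.08, 1.66 and 0.785 CPM in vehicle tumours, and 2 of the 11 reached the vehicle range. SPON tumours had 0, 0.0516, 10.5, 0 and 0.395 CPM, against 24.5, 1.08, 1.07, 0 and 8.41 CPM in WT tumours. Adipsin was thus counted in more libraries than the other secreted members, and in the _7 set, SPON and WT its highest libraries were those of Adipoq.

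Fabp4 and Pparg followed Adipoq less closely than these. Fabp4 (chr3:10204088-10208576, minus strand) encodes a carrier of fatty acids in the cell and was counted in every library. Its level was 20.3, 45.5, 16.4 and 90.2 CPM in RP-6306 _7 tumours, against 28.1, 13.8 and 25.2 CPM in vehicle _7 tumours. It was 6.09 to 42.2 CPM with a median of 17.1 in RP-6306 tumours without suffix, against 42.8, 17.5, 21.6 and 21.6 CPM in vehicle tumours. In SPON tumours it was 39.9, 25.8, 56.3, 14.8 and 186 CPM, against 22.0, 15.5, 14.8, 13.0 and 19.04 CPM in WT tumours. In the 14 libraries without any Adipoq count, Fabp4 ranged from 9.45 to 186 CPM with a median of 17.3, while Cfd stayed between 0 and 1.08 CPM.

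The highest Fabp4 level, 186 CPM in SPON replicate 5, came with no Adipoq count. In that library Lpl, a secreted lipase, was at 70.6 CPM and Cd36, a fatty acid transporter, at 21.1 CPM, the highest of the SPON group for both. The sum of 10 endothelial markers was 456 CPM there and 197 to 304 CPM in the other SPON tumours. The TMM scaling factor of that library was 0.698, the lowest of all libraries, against 1.03 in SPON replicate 3. A low factor raises every CPM value of a library, so the size of these contrasts depends on the scaling.

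Pparg (chr6:115360951-115490399, plus strand) was at 1.51, 2.703, 1.08 and 2.45 CPM in RP-6306 _7 tumours, against 2.12, 1.60 and 1.90 CPM in vehicle _7 tumours. It was 0.101 to 1.14 CPM with a median of 0.501 in RP-6306 tumours without suffix, against 1.11, 1.15, 1.17 and 0.714 CPM in vehicle tumours. SPON tumours had 0, 0.671, 16.2, 0.645 and 2.53 CPM, against 1.27, 1.08, 2.02, 1.31 and 0.668 CPM in WT tumours. SPON replicate 3 alone stood far above the rest of the study. The gene overlaps an annotated antisense gene, Gm44079, and since no source used here states whether counting used strand, reads of the pair cannot be told apart.

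Set against each other per kilobase of annotated exon, the members differed widely in the fullest library, RP-6306 _7 replicate 4. Cfd was highest there at 53.6 CPM per kb, followed by Fabp4 at 20.1, Adipoq at 6.11, Cidec at 5.53, Retn at 3.83, Plin1 at 2.38 and Lep at 0.490 CPM per kb. Pparg, a transcription factor, did not exceed 0.915 CPM per kb in any RP-6306 _7 tumour. The annotated exons of Fabp4 together cover its whole gene span of 4489 bases, so its level per kb is a low estimate.

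**Figure D2:**
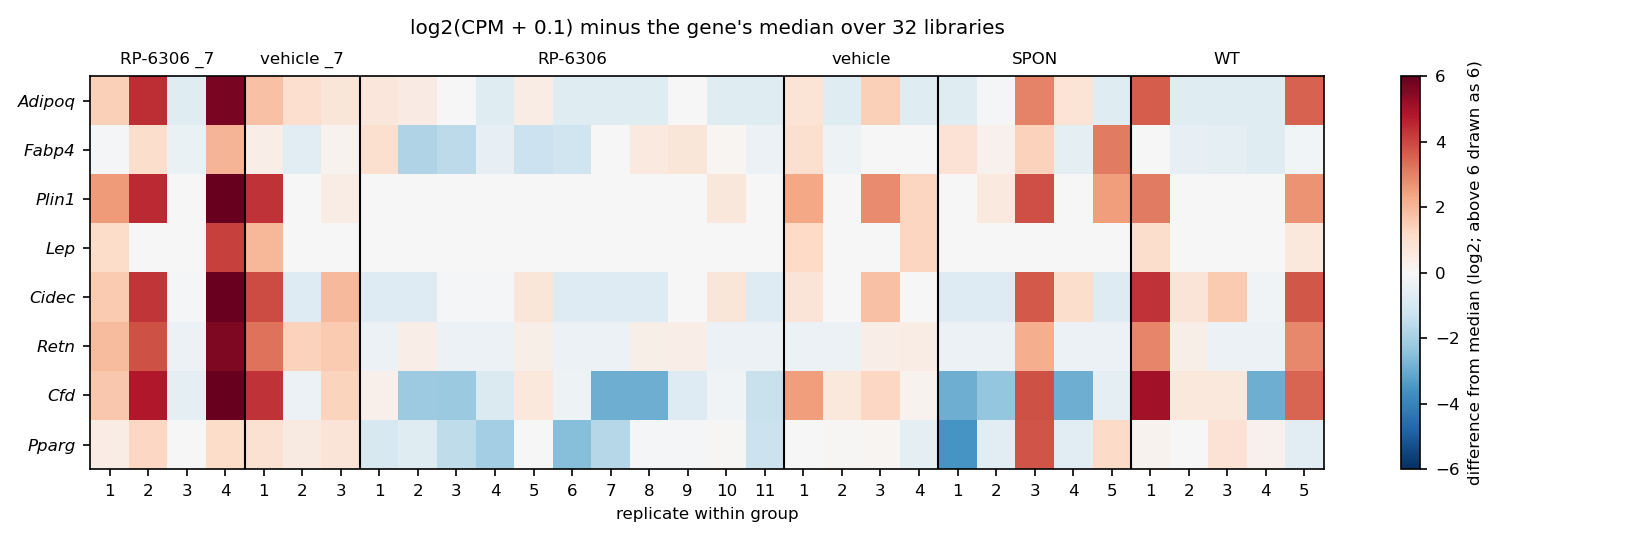
Difference of log2(CPM + 0.1) from each gene's median over 32 libraries (rows: genes; columns: libraries by group and replicate; red above, blue below, values above 6 drawn as 6). The red columns are RP-6306 _7 replicates 2 and 4, vehicle _7 replicate 1, SPON replicate 3 and WT replicates 1 and 5.

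The same libraries led for most members. Replicate 4 was the highest RP-6306 _7 library for 7 of the 8 genes, all but Pparg, and replicate 1 was the highest vehicle _7 library for all 8. SPON replicate 3 led its group for 6 genes, and WT replicate 1 led its group for 7. By contrast, the highest RP-6306 library without suffix was replicate 1, 5, 9 or 10, depending on the gene. These leading libraries also held Car3, a carbonic anhydrase abundant in fat and muscle, at 74.5 CPM in RP-6306 _7 replicate 4, 24.7 CPM in RP-6306 _7 replicate 2, 20.6 CPM in vehicle _7 replicate 1, 15.9 CPM in SPON replicate 3, and 20.4 and 11.6 CPM in WT replicates 1 and 5. All other libraries were at or below 7.87 CPM for it.

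The libraries with the most Adipoq counts were not alike in their counts of other members per Adipoq count. In the 6 libraries with at least 10 Adipoq counts, Fabp4 had 13.0 and 10.7 counts per Adipoq count in RP-6306 _7 replicates 2 and 4, against 61.8 in vehicle _7 replicate 1 (exact 95% interval 35.2 to 120). It had 45.9 (28.9 to 77.9) in SPON replicate 3, against 11.4 and 10.4 in WT replicates 1 and 5. Cfd had 5.97 and 5.85 counts per Adipoq count in the RP-6306 _7 libraries, against 33.2 (18.8 to 64.7) in the vehicle _7 library, and 8.56 in the SPON library, against 12.7 and 4.58 in the WT libraries. These intervals cover counting error only and compare single libraries, not conditions. Fabp4 was also counted where Adipoq was scarce. RP-6306 _7 replicate 1, with 9 Adipoq counts, fell just under the cut of 10 and had 536 Fabp4 and 59 Cfd counts. Vehicle _7 replicates 2 and 3 had 425 and 732 Fabp4 counts beside 7 and 5 of Adipoq. The part of other cells in the Fabp4 ratios, and in those of Pparg below, was not tested.

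Pparg stood apart in SPON replicate 3. There it had 13.2 counts per Adipoq count (8.19 to 22.7), against 0.657 and 0.364 in WT replicates 1 and 5. In the _7 set the ratio was 0.770 and 0.290 in RP-6306 replicates 2 and 4, against 4.67 in vehicle replicate 1. RP-6306 _7 replicate 1, left out by the cut on Adipoq, had 40 Pparg counts beside 9 of Adipoq. Retn kept to 0.484 and 0.717 counts per Adipoq count in RP-6306 _7 replicates 2 and 4. It had 0.389 in the SPON library and 0.457 and 0.455 in the WT libraries. The value was 2.50 in the vehicle _7 library, which had 12 Adipoq counts. RP-6306 _7 replicate 1 had 10 Retn counts beside 9 of Adipoq.

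**Figure D3:**
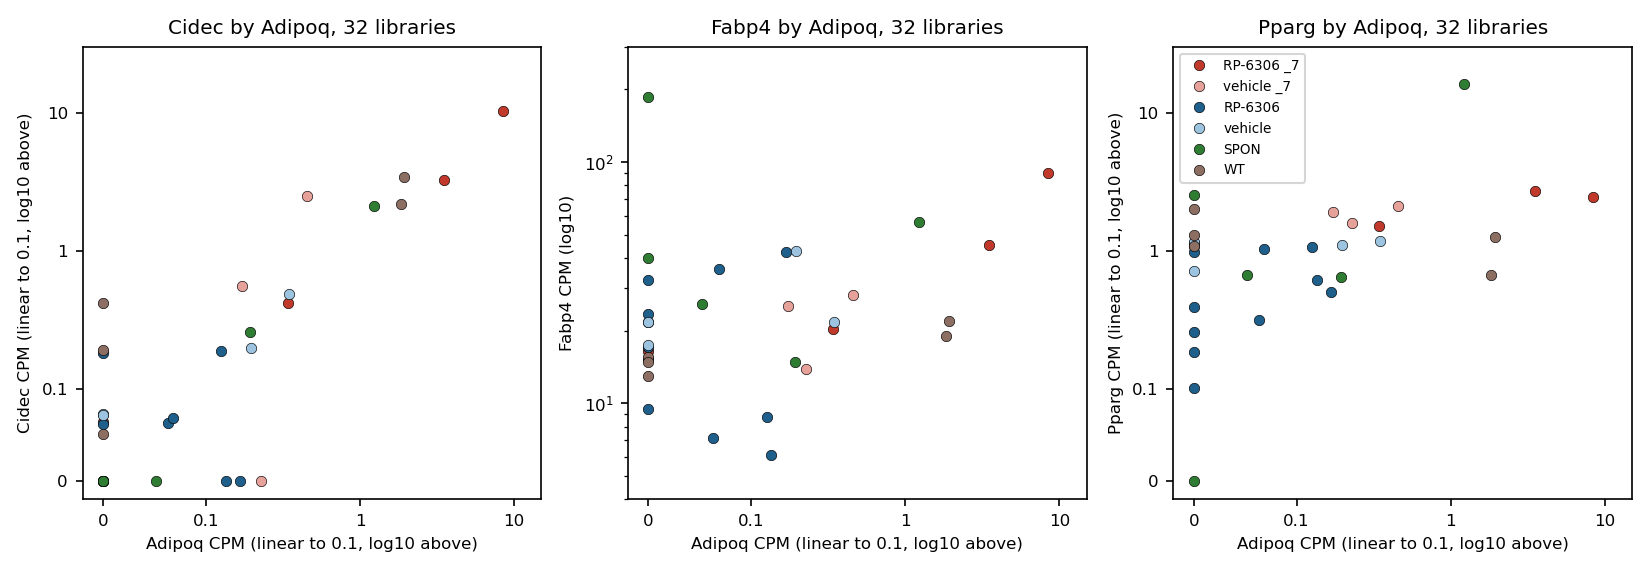
Cidec, Fabp4 and Pparg CPM (vertical axes) against Adipoq CPM (horizontal, linear up to 0.1 and log10 above) in 32 libraries, coloured by title group. Cidec exceeds 1 CPM in 6 libraries, all with Adipoq counts, whereas Fabp4 reaches 186 CPM and Pparg 2.53 CPM in a library with no Adipoq count.

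Likeness to Adipoq was measured as Pearson's r of log2 CPM deviations from group means over the 32 libraries, which share their sequencing depth and composition within a library. Among the members r was 0.91 for Retn, 0.86 for Cidec, 0.81 for Plin1 and 0.80 for Cfd, and 0.34 for Pparg and 0.28 for Fabp4. Lep was too low to be included. A total of 18184 genes, members included, passed the count filter. Of those that are not members, Pck1, the enzyme that supplies glycerol phosphate for fat storage, came first at 0.89. Cyp2e1, a cytochrome P450 also found in fat, followed at 0.82. The other 8 of the first 10 were Glb1l2 (0.66), Car3 (0.65), Gm11639 (0.62), Col10a1 (0.58), Sdk2 (0.58), Elavl2 (0.56), Cidea (0.55) and Tspan7 (0.55). By Spearman's rho, 5 of these 10 stayed among the first 10. These are descriptions with no test.

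Most other genes of fat metabolism ran with Adipoq only loosely. The median r was 0.18 over 9 droplet and lipolysis genes, 0.16 over 14 genes of lipid uptake and triglyceride synthesis and -0.10 over 11 adipogenic transcription factors, beside 0.00 over all genes. For markers of other cells it was -0.07 over 10 macrophage, -0.04 over 10 endothelial and 0.03 over 10 epithelial genes. The lowest list was skeletal muscle, at -0.44 over 10 genes, each between -0.56 and -0.27. Its summed CPM was 610, 948, 231 and 82.3 in vehicle tumours without suffix, where Adipoq was at 0.196, 0, 0.345 and 0 CPM. The sum reached 230 in RP-6306 _7 replicate 3, a tumour with no Adipoq count, and 100 in vehicle _7 replicate 2, with 7 Adipoq counts.

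**Figure D4:**
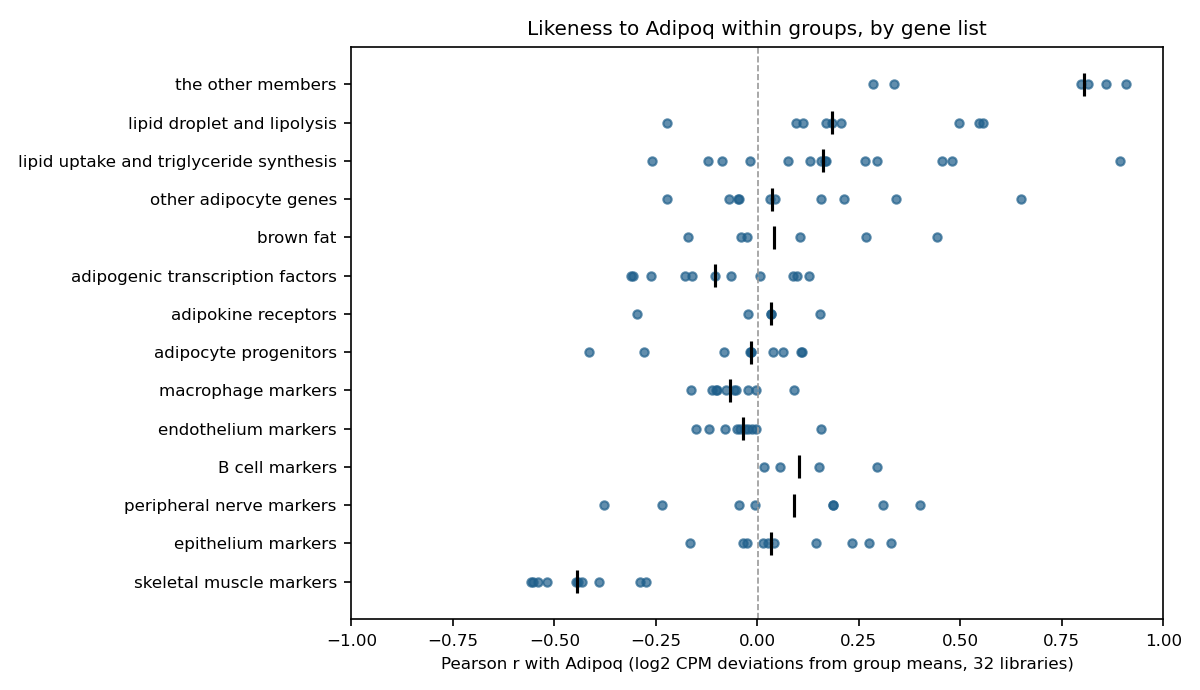
Pearson's r with Adipoq of log2 CPM deviations from group means over 32 libraries, by gene list (points: genes; vertical bars: list medians). Retn, Cidec, Plin1 and Cfd lie between 0.80 and 0.91, Pparg and Fabp4 at 0.34 and 0.28, and the skeletal muscle genes all lie below 0.

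The first comparison asked whether RP-6306 changed the genes in the _7 set. No member passed the threshold, an adjusted p under 0.05 in edgeR's quasi-likelihood test over all genes tested. Adipoq had a log2 fold change of 3.43 ± 1.40 (SE, n = 4 and 3), with an unadjusted p of 0.0344 and an adjusted p of 0.794 in edgeR. Plin1 was at 2.45 ± 1.64 and Cfd at 1.67 ± 1.35, with adjusted p of 0.860 and 0.882 in edgeR. Retn was at 1.91, Cidec at 1.81, Fabp4 at 0.95 and Pparg at 0.06 on the same scale. The 7 members tested had a median log2 fold change of 1.81, against 0.01 over all genes, and Lep failed the filter on low counts. Adipoq, Plin1 and Retn passed it mostly through RP-6306 _7 tumours in which they were high, and most members shared their high libraries. The medians therefore give no test of the members as a set. Of 16699 genes tested, 0% were called in either direction by edgeR, 1033 had an unadjusted p under 0.05, and DESeq2 called 55. Without RP-6306 _7 replicate 4 the log2 fold change was 2.18 for Adipoq, 0.49 for Plin1 and 0.45 for Cfd, and without vehicle _7 replicate 1 it was 3.91, 7.36 and 3.98. None of the genes in the other fat or marker lists was called by edgeR either; Cebpd was at -0.39 ± 0.10 with an adjusted p of 0.707 in edgeR.

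Some other markers were high in single RP-6306 _7 tumours in which Adipoq was high. The summed CPM of 10 B cell markers was 107 in RP-6306 _7 replicate 2 and at most 9.18 in the other RP-6306 _7 tumours, against 6.33 to 6.99 in vehicle _7 tumours. Ucp1, the uncoupling protein of brown fat, was at 6.21 CPM in RP-6306 _7 replicate 4 and at most 0.431 CPM in the other RP-6306 _7 tumours, against at most 0.241 CPM in vehicle _7 tumours. The part of these cells in the member levels was not tested.

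The next comparison was RP-6306 against vehicle in the set without suffix. Cfd was called lower in RP-6306 tumours, with a log2 fold change of -2.38 ± 0.66 (SE, n = 11 and 4) and an adjusted p of 0.00508 in edgeR. Without vehicle replicate 1 its value was -1.67 with an adjusted p of 0.0652 in edgeR, and in 1 fit over the 32 libraries it was -2.42 and not called. Fabp4 was at -0.37 ± 0.44 and Pparg at -0.80 ± 0.49, with adjusted p of 0.4927 and 0.169 in edgeR. These 3 members alone passed the filter, so 1 of 3 was called, where 59.5% of all 16021 genes tested were called with 30.5% called higher and 29.0% called lower. With no filter, Plin1 (-4.47, adjusted p of 0.000321) and Lep (-3.29, adjusted p of 0.0268) were also called lower in edgeR. These fitted values rest on the 1 and 0 counts in RP-6306 tumours given above.

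Most markers of other cells moved in the same comparison. All 10 macrophage and all 10 endothelial markers fell in RP-6306 tumours, as did 5 of 6 tested muscle markers, and 9 of 10 epithelial markers rose. The summed muscle markers were at 2.58 to 12.9 CPM in RP-6306 tumours, against 82.3 to 948 CPM in vehicle tumours, and the macrophage markers at 961 to 2313 CPM, against 3682 to 5055 CPM. How far these shifts in make-up set the level of Cfd was not tested.

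Other fat genes, from lists chosen with earlier results known, went in both directions there. Of 8 tested droplet and lipolysis genes, 4 rose and 4 fell. Pnpla2, the first lipase of triglyceride breakdown, rose by 1.48 ± 0.13 (log2, SE) with an adjusted p of 1.23e-07 in edgeR. Cidea, a relative of Cidec that is also made by milk-secreting epithelium, had 615 counts in RP-6306 tumours and 3 in vehicle tumours, with a log2 fold change of 5.80 ± 0.61 (SE) and an adjusted p of 5.7e-07 in edgeR. Of 13 genes of lipid uptake and triglyceride synthesis, 5 rose and 4 fell, among them Cd36 at -3.26 ± 0.40 with an adjusted p of 3.08e-06 in edgeR. Of 11 transcription factors, 4 rose and 4 fell, and Cebpd, which precedes Pparg in fat cell formation, rose by 1.58 ± 0.14 with an adjusted p of 1.02e-07 in edgeR. All 5 receptors for fat hormones and insulin passed the test, 2 higher and 3 lower, with Adipor2, an adiponectin receptor, at -1.37 ± 0.14 and Cdh13, which binds adiponectin at the cell surface, at -3.40 ± 0.28 (adjusted p of 5.37e-07 and 3.55e-08 in edgeR). Of 8 other adipocyte genes 1 rose and 3 fell, of 3 brown fat genes 1 rose and 1 fell, and of 10 fat progenitor genes 6 fell. The 2 tested B cell markers, Fcrla and Cd22, were called lower but lost the call in 1 and 2 of 15 fits that left out a library. Of 7 peripheral nerve markers 3 rose and 1 fell.

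**Figure D5:**
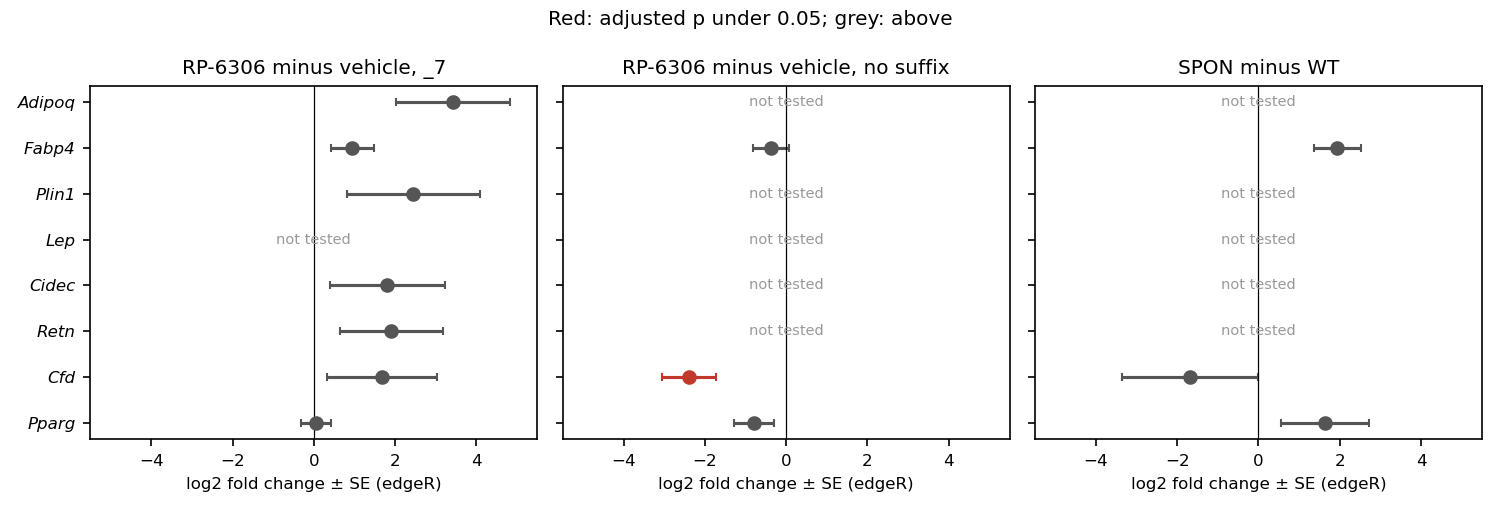
Log2 fold change ± SE (horizontal) of each member in the 3 comparisons of groups by edgeR's quasi-likelihood test, with positive values higher in RP-6306 or SPON tumours and genes below the count filter marked as not tested. The single red point is Cfd in RP-6306 against vehicle tumours without suffix, at -2.38.

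Between the untreated groups, SPON against WT, no member passed the threshold in edgeR, and Fabp4 alone had an unadjusted p under 0.05, at 0.00595. Fabp4 was at 1.94 ± 0.58 (log2, SE, n = 5 each) with an adjusted p of 0.0602 in edgeR and passed it in DESeq2 (1.95, adjusted p of 0.00710), in 1 fit over the 32 libraries, and without SPON replicate 2 or 4. Without SPON replicate 5 the value was 1.03. Pparg was at 1.64 ± 1.09 with an adjusted p of 0.361 in edgeR, and its sign turned to -0.41 without SPON replicate 3. Cfd was at -1.69 ± 1.67 with an adjusted p of 0.556 in edgeR. Of 15558 genes tested, 8.38% were called, 4.52% higher and 3.86% lower, and the other 5 members failed the filter on low counts.

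Some fat genes outside the 8 were lower in SPON tumours. Of 9 droplet and lipolysis genes tested, 3 were called, all lower. One of them, Plin5, lost its call in 9 of the 10 fits that left out a library and in 3 of 6 other alternatives. Another was Abhd5, the activator of Pnpla2, at -1.69 ± 0.26 with an adjusted p of 0.00511 in edgeR. Thrsp, a factor of fatty acid synthesis in fat and lactating epithelium, was the 1 called of 13 genes of lipid uptake and synthesis, at -6.30 ± 0.66 with an adjusted p of 0.00112 in edgeR. Of 11 transcription factors, 3 rose and 1 fell, and Ebf2, 1 of the 3, lost its call in 2 of 10 such fits. Klf15 rose by 3.602 ± 0.61 and Srebf1 fell by 1.89 ± 0.34 on the log2 scale (adjusted p of 0.00803 and 0.0106 in edgeR). Of 8 other adipocyte genes 1 fell, of 5 brown fat genes 1 fell and of 10 fat progenitor genes 1 rose. Of 4 muscle markers Mb was called lower, and of 10 macrophage markers Mrc1 and Lyz2 were called higher, but leaving out a library ended the call in 6 of 10 fits for Mb, 4 of 10 for Mrc1 and 5 of 10 for Lyz2. The macrophage markers summed to 399 to 1057 CPM in SPON tumours, against 232 to 441 CPM in WT tumours. The endothelial markers summed to 197 to 456 CPM in SPON tumours, against 159 to 202 CPM in WT tumours. The part of these cells in the level of Fabp4 was not tested.

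The effect of RP-6306 was also compared between the sets, as the log2 fold change without suffix minus that in the _7 set. Of 6 members tested, Plin1 and Cfd were called, both lower, where 36.0% of 17095 genes were called, 17.0% higher and 18.9% lower. Plin1 was at -7.11 ± 2.09 with an adjusted p of 0.0108 in edgeR, a fitted value that rests on the single count in RP-6306 tumours without suffix. The gene passed the filter through RP-6306 _7 replicates 2 and 4 and vehicle _7 replicate 1, in which it was high. It was not called in DESeq2 or limma voom, was not tested without RP-6306 _7 replicate 2 or 4, and lay between -11.90 (without vehicle _7 replicate 1) and -6.47 (without vehicle replicate 3 of the other set) with the other libraries left out in turn. Cfd was at -4.03 ± 1.497 with an adjusted p of 0.0390 in edgeR. Its call was lost in voom and in 1 fit over 32 libraries, and without vehicle _7 replicate 2 or 3, RP-6306 _7 replicate 2 or 4, or vehicle replicate 1 of the other set, with values from -6.36 to -2.83. Cidec was at -3.72 ± 1.76 with an adjusted p of 0.104 in edgeR and was called without vehicle _7 replicate 1 or RP-6306 _7 replicate 3. Among the other fat genes, 1 of 8 droplet and lipolysis genes was higher and 4 were lower in this difference, with Pnpla2 at 1.40 ± 0.22 (adjusted p of 5e-05 in edgeR). Of 14 genes of lipid uptake and synthesis 2 were higher and 4 lower, with Cd36 at -3.97 ± 0.65 (adjusted p of 8.12e-05 in edgeR). The sets also differed in depth and epithelial content, which cannot be told apart from the set.

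Over all 6 groups together, 7 of 7 tested members varied by edgeR's test, where 85.7% of 18184 genes did so, and the filter kept the low members through the groups in which they were high. The adjusted p ran from 5.27e-05 for Retn to 0.00624 for Fabp4 in edgeR. The call for Fabp4 was lost without SPON replicate 5 (adjusted p of 0.0860 in edgeR). That for Adipoq was lost in limma voom with and without quality weights (adjusted p at most 0.157). That for Cfd was lost in voom with quality weights (0.0776).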

How the data were processed

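Read counts of mouse mammary tumours were used as deposited by the authors, whole numbers per Ensembl gene, made with STAR 2.7.10a, HTSeq and edgeR on GRCm38 per the submitters' processing notes. The deposited log2 CPM table was not used. Strandedness, annotation release and read filters are not given in the sources used here. Of 54532 genes, 791 without a symbol were kept under their identifiers, and 0 columns belonged to other samples. One sample whose title and treatment disagree was left without a group (1 of 33 not analysed here). No label ties a library to an animal. The p-values therefore reflect variation among the sequenced samples only, which may be technical. Counts of no 2 libraries of a group agreed within sampling noise (90 pairs).

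CPM used TMM factors over 32 libraries (edgeR 4.0.16, R 4.3.3), and log2 CPM a prior count of 2. Comparisons used filterByExpr, TMM and edgeR's quasi-likelihood F test on the groups compared, with Benjamini-Hochberg adjustment over all genes tested and a threshold of 0.05. Standard errors came from the F statistic. Intervals are exact at 95%, and a total of 0 was read as up to 3 counts. Alternatives were DESeq2 size factors, no filter, DESeq2 1.42.0, limma 3.58.1 voom with and without quality weights, 1 fit over 32 libraries, and leaving out single libraries (86 fits). The fits were tested on simulated counts. Gene positions and exon lengths came from GENCODE M21, and promoter windows from RefSeq (GRCm38.p6).

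All 8 members were named in every comparison, and the rule for other genes allowed up to 3 per list with the smallest p, plus the 10 most like Adipoq. The 14 lists held 140 entries, of which 139 matched, and 1 listed symbol stood on 2 rows, of which the fuller was used. Lpl and Ucp1 were singled out after their values were seen. Members and lists were chosen with earlier results of these data known.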

Additional observations from a re-analysis of the deposited data

Results flagged for a closer look

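Within groups of 4 to 10 tumours, 31 combinations of gene and group were examined for a tumour far from the others, and 9 had one. The rule would flag about 1 in 20 groups by chance if the values were normally distributed. These CPM values were skewed and held many zeros, so the chance rate here is not known. The 8 genes also share their libraries. SPON replicate 3 accounted for 5 of the 9. It lay above the other SPON tumours for Adipoq (1.22 CPM), Cidec (2.11 CPM), Retn (0.476 CPM), Cfd (10.5 CPM) and Pparg (16.2 CPM). SPON replicate 5 lay above them for Fabp4 (186 CPM). RP-6306 _7 replicate 4 lay above the other 3 for Lep (1.64 CPM). Among the vehicle tumours without suffix, replicate 1 lay above the rest for Fabp4 (42.8 CPM) and replicate 4 below the rest for Pparg (0.714 CPM).

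In edgeR's test of the difference in the effect of RP-6306 between the sets, Plin1 (-7.11 on the log2 scale, adjusted p of 0.0108) and Cfd (-4.03, adjusted p of 0.0390) were called. Plin1 passed the count filter through RP-6306 _7 replicates 2 and 4 and vehicle _7 replicate 1, in which it was high. It was not tested without RP-6306 _7 replicate 2 or 4, and was not called in DESeq2 or voom. The call for Cfd was lost in voom, in 1 fit over 32 libraries and when any 1 of 5 libraries was left out. Within the _7 set alone, neither passed the test (adjusted p of 0.860 for Plin1 and 0.882 for Cfd in edgeR).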

How the results depend on the processing

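Depth limits the low members: at 13701115 to 34637096 counts a library, a level under about 0.237 CPM can go uncounted, and 5 of the 8 genes could not be tested in the set without suffix or in SPON against WT. No paired analysis was possible because the labels give no replicate numbers, and the numbers used here follow accession order. All 96 group means moved by less than 1 SD under other scalings. Of the 10 genes most like Adipoq, 5 were shared with those by Spearman's rho. In the _7 set no member was called under any alternative, but all genes called went from 0 to 6 with no filter and 55 in DESeq2. Without suffix, members called were 3 with no filter, 2 in voom with quality weights (Pparg at -1.21, adjusted p of 0.0257 in limma) and 0 to 1 with each library left out. In SPON against WT, members called were 1 in DESeq2, 1 in 1 fit over 32 libraries and 0 to 1 with each library left out, and all genes called were 2648, 5472 and 506 to 1887. In the difference between the sets, members called were 1 in DESeq2, 0 in voom, 0 in voom with quality weights, 1 in 1 fit over 32 libraries (3501 of all genes) and 0 to 3 with each library left out. Pparg changed sign in the _7 set in voom (-0.0015), and between -0.15 and 0.25 with each library left out (-0.05 without vehicle replicate 2, -0.15 without RP-6306 replicate 2, -0.08 without RP-6306 replicate 4). In SPON against WT it did so in voom (-0.32), voom with quality weights (-0.15) and without SPON replicate 3 (-0.41), with a range of -0.41 to 1.97 over the libraries left out. The cause was not tested.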

Other observations

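Cidec and Cidea, which encode related droplet proteins, had different patterns over the groups. Cidea was at 1.26 to 5.43 CPM in RP-6306 tumours without suffix, against at most 0.0722 CPM in their vehicle tumours, whereas Cidec was at most 0.189 CPM, against at most 0.483 CPM. In RP-6306 _7 replicate 4 both were present, Cidec at 10.3 CPM and Cidea at 2.30 CPM. Cidea was at 1.40, 9.50, 5.99, 4.32 and 2.37 CPM in SPON tumours, against 1.82, 1.52, 1.54, 2.17 and 3.01 CPM in WT tumours, and was counted in all 10.

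Ucp1, the uncoupling protein of brown fat, had 200 counts in RP-6306 _7 replicate 4 and 21 counts (1.17 CPM) in WT replicate 5, both tumours with Adipoq. It had 15 counts in RP-6306 _7 replicate 2 and none in the 4 vehicle tumours without suffix. Col10a1, a collagen best known from cartilage, was at 67.2 CPM in SPON replicate 3, where Pparg was also highest, and at most 4.98 CPM in the other SPON tumours, against at most 4.03 CPM in WT tumours.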
